A study of Mus musculus with 20 samples.

Results

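The 10 genes described here, Derl3, Sdf2l1, Stc2, Hspa5, Creld2, Manf, Pdia4, Hsp90b1, Calr and Xbp1, serve protein folding, quality control and secretion in the endoplasmic reticulum (ER) and belong to the unfolded protein response. They were chosen by name from the 13798 genes of the expression matrix, for levels measured in these same follicular T cells between conditions and clusters, so their values between conditions and between clusters are given as a description with no test. All 10 were found in the matrix, and all 10 were found in cells of every mouse.

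Single cell RNA and T cell receptor sequencing was performed on CD4+CXCR5+PD-1+ cells sorted from the spleens of 10 C57BL/6 bone marrow chimeras, 10 weeks after irradiation. All recipients were irradiated wild type mice that received congenic wild type marrow. The 5 WT chimeras received no other marrow and were immunised 6 weeks after irradiation with NP-OVA, a hapten coupled to ovalbumin, in alum. The methods of the paper also give them a later booster of NP-OVA. The 5 mixed 564Igi chimeras also received 564Igi marrow, whose B cells carry knocked-in heavy and light chains of an autoreactive receptor against ribonuclear complexes, and were not immunised, so the B cell knock-in and the immunisation cannot be told apart. By the labels, 3 of the WT and 2 of the 564Igi mice were male. The sort kept CD45.2+CD45.1- T cells only, and the knocked-in chains act in B cells, which were not sequenced.

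Proteins bound for the cell surface or for secretion fold in the ER with the help of chaperones and disulfide isomerases. When unfolded proteins build up, the sensors IRE1, PERK and ATF6 switch on a shared program: IRE1 splices the mRNA of Xbp1 into one that encodes an active transcription factor, ATF6 is cut to release another, and PERK slows translation and raises ATF4. Among the genes here, Hspa5 (BiP), Hsp90b1 (GRP94), Calr (calreticulin) and Pdia4 are lumenal chaperones and folding enzymes, Sdf2l1 and Creld2 are ER proteins that associate with the folding machinery, Derl3 takes part in ER-associated degradation, and Manf and Stc2 are secreted proteins that ER stress induces. Follicular T cells secrete cytokines, and plasma cells are the best known lymphoid users of this program.

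The ER stress response element (ERSE) is the promoter motif through which ATF6 and XBP1 are known to act with the factor NF-Y, and it is shown here because it is the best known shared sequence of unfolded protein response genes. Promoter windows of RefSeq (GRCm38.p6), from 250 bases before to 50 bases after each gene's start, were found for 9 of the 10 genes, all but Manf. The ERSE, written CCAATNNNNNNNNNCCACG and searched on both strands, was present in 5 of these 9 windows, and in 37 of 27025 genes with a window (0.137%). The matches are printed below 5′ to 3′ on the strand of the gene, with 5 bases on either side in lower case and the motif in capitals. In 4 of the 6 the motif lies on the opposite strand and reads as its reverse complement.
Hspa5, chr2:34772020-34772048, gene on the plus strand: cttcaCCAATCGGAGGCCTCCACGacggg
Hsp90b1, chr10:86705633-86705661, gene on the minus strand: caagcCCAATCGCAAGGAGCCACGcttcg
Hsp90b1, chr10:86705528-86705556, gene on the minus strand: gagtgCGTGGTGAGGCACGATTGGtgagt
Calr, chr8:84847070-84847098, gene on the minus strand: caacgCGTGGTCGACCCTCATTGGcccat
Derl3, chr10:75893237-75893265, gene on the plus strand: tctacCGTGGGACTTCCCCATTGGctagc
Creld2, chr15:88819515-88819543, gene on the plus strand: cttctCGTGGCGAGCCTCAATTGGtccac
Hsp90b1 held 2 matches and the other 4 genes held 1 each. The first base of the match lay 65 bases before the RefSeq start in Hspa5, 126 in Creld2, 156 in Derl3, 162 in Calr, and 212 and 107 in Hsp90b1. The gene positions given with the values are those of the GRCm38 gene annotation, whose start can differ from that of RefSeq: it lies 120 bases earlier in Hspa5, so that this match falls 55 bases inside the annotated gene, and 65 bases earlier in Hsp90b1, so that its matches lie 147 and 42 bases before it. The windows of Sdf2l1, Stc2, Pdia4 and Xbp1 held no such letters. None of the 9 windows held the ERSE-II (ATTGGNCCACG, in 0.0444% of all windows), the core of the unfolded protein response element (TGACGTGG, in 0.714%) or the ATF4 core (TGATGCAA, in 1.03%). A match is a description of the sequence and not a measured binding site.

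The matrix held 28192 cells, 14965 from WT and 13227 from 564Igi chimeras, with 1121 to 4030 cells and a median of 2728 to 4375.5 raw UMIs per mouse. Its values are UMI counts that the authors corrected for depth in each condition separately, so the correction and the condition cannot be told apart. A gene was counted as found in a cell with at least 1 corrected UMI, and its level in a mouse is the mean over cells of log2(corrected count + 1), a scale on which a rare transcript has small differences. Cd3e, part of the T cell receptor complex, was present in 98.8% to 99.8% of the cells of each mouse. Jchain, Mzb1 and Sdc1, which mark plasma cells, were each found in at most 0.581%, with a summed count of 0.223 to 0.635 per 100 cells in the WT mice and 0.256 to 1.03 in the 564Igi mice. A total of 491 barcodes occurred in more than 1 library and covered 988 cells (3.50%). Without those cells the ratio of the shares between conditions moved by at most 0.593% for any of the 10 genes, and the shares of Derl3 and Stc2 still did not overlap.

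Derl3, Stc2 and Sdf2l1 differed most between conditions by the ratio of their shares of cells. The values of the 5 mice follow here and below in 1 order, WT mice 14, 11, 12, 23 and 36 and 564Igi mice 17, 24, 13, 21 and 34. Derl3 (chr10:75893413-75895941, plus strand, GRCm38) was present in 1.06%, 0.422%, 0.669%, 0.541% and 0.521% of the cells of the WT mice, and in 2.14%, 2.05%, 2.58%, 2.44% and 2.67% of those of the 564Igi mice. All 5 564Igi mice exceeded all 5 WT mice, and the mean share was 0.642% ± 0.249 (SD, n = 5) against 2.37% ± 0.270 (SD, n = 5), a ratio of 3.70. Each of the 90 WT cells with Derl3 held exactly 1 corrected UMI, whereas 43 of the 320 cells with Derl3 in 564Igi mice (13.4%) held more, up to 4. For scale, 27.2% of the 1213 genes found in 0.3% to 0.9% of WT cells never exceeded 1 corrected UMI there. No cell type that lacks Derl3 was sorted, so the part of free RNA in its low shares was not tested.

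Stc2, stanniocalcin 2 (chr11:31357307-31370074, minus strand), had shares of 3.07%, 1.93%, 1.30%, 2.22% and 3.50% in the WT chimeras against 5.10%, 4.37%, 5.46%, 5.74% and 5.13% in the 564Igi chimeras. The groups again did not overlap, with means of 2.40% ± 0.882 and 5.16% ± 0.512 (SD, n = 5 each), a ratio of 2.15. Sdf2l1 (chr16:17130138-17132383, minus strand) reached 17.9%, 16.7%, 10.9%, 17.2% and 19.1% of cells in WT mice and 22.6%, 17.7%, 22.7%, 20.6% and 26.8% in 564Igi mice. Its means were 16.4% ± 3.21 and 22.1% ± 3.34 (SD, n = 5 each), a ratio of 1.35, but 564Igi mouse 24 lay within the WT range. Counts per cell differed too: 12.2% of the 2481 WT cells and 22.9% of the 2999 564Igi cells with Sdf2l1 had more than 1 corrected UMI, with ranges over mice of 8.9% to 14.7% and 18.8% to 27.9%.

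**Figure D1:**
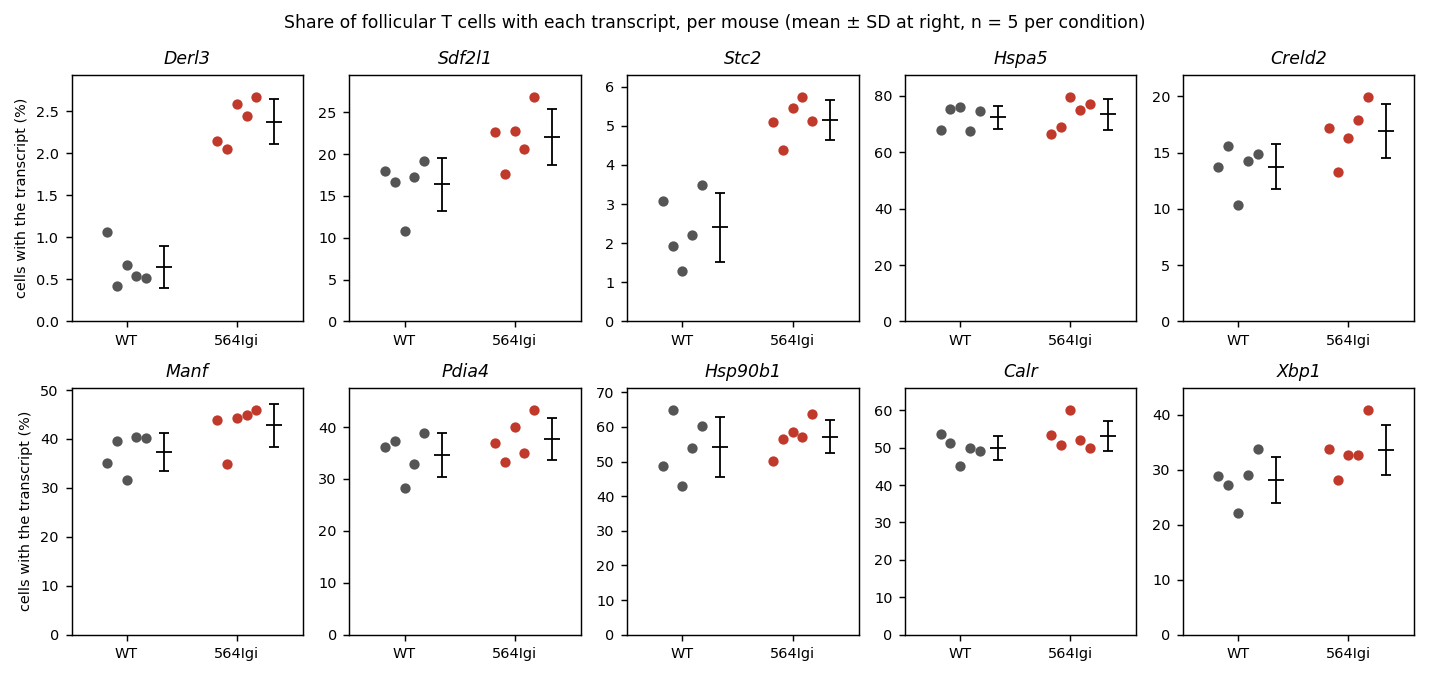
Share of follicular T cells (%) in which each of the 10 transcripts was found, 1 point per mouse, WT in grey and 564Igi in red, with the mean ± SD over 5 mice at the right of each group. Derl3 and Stc2 have no overlap between conditions. Hspa5 is almost level in its share, found in 72.4% and 73.5% of cells.

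The abundant lumenal chaperones differed less in share. Hspa5, the chaperone BiP (chr2:34771970-34777547, plus strand), was present in 67.8%, 75.3%, 76.2%, 67.7% and 74.7% of the cells of the WT mice, and in 66.5%, 69.0%, 79.6%, 75.2% and 77.2% of those of the 564Igi mice. Its means, 72.4% ± 4.22 and 73.5% ± 5.56 (SD, n = 5 each), differed by less than 1 SD, and its level by 0.13 on the log2 scale (SE 0.096). Its corrected count per 100 cells averaged 182 ± 23.4 in WT and 222 ± 43.4 in 564Igi mice, a ratio of 1.22. Hsp90b1, the ER member of the HSP90 family (chr10:86690209-86705509, minus strand), had shares of 48.7%, 64.8%, 43.0%, 53.9% and 60.4% in the WT chimeras against 50.2%, 56.4%, 58.6%, 57.2% and 63.6% in the 564Igi chimeras. The shares of both conditions were interleaved and the WT mice spread the most, with means of 54.2% ± 8.73 and 57.2% ± 4.84. Its corrected count per 100 cells averaged 96.0 ± 24.1 in WT and 121 ± 22.7 in 564Igi mice, a ratio of 1.26.

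Calr, the calcium-binding chaperone of glycoproteins (chr8:84841850-84846934, minus strand), reached 53.7%, 51.4%, 45.2%, 49.99% and 49.2% of cells in WT mice and 53.5%, 50.7%, 60.0%, 52.1% and 49.9% in 564Igi mice. Its shares overlapped, but its level, which also counts further UMIs in a cell, was higher in every 564Igi mouse than in every WT mouse, by 0.10 on the log2 scale (SE 0.039). Of the cells with Calr, 38.8% of 7426 in WT and 47.7% of 7093 in 564Igi mice held more than 1 corrected UMI, with ranges over mice of 36.7% to 41.3% and 41.4% to 52.5%. Pdia4, a disulfide isomerase (chr6:47796141-47813430, minus strand), was present in 36.1%, 37.2%, 28.2%, 32.9% and 38.8% of the cells of the WT mice, and in 36.9%, 33.3%, 40.0%, 34.9% and 43.2% of those of the 564Igi mice. Its mean shares of 34.7% ± 4.19 and 37.7% ± 3.99 overlapped.

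Of the other ER proteins and secreted factors, Manf (chr9:106838312-106891979, minus strand), a secreted survival factor, had shares of 35.2%, 39.5%, 31.6%, 40.5% and 40.1% in the WT chimeras against 43.9%, 35.0%, 44.4%, 44.8% and 45.9% in the 564Igi chimeras. All 564Igi mice but mouse 24 lay above the WT mice. Creld2 (chr15:88819646-88826683, plus strand) reached 13.7%, 15.6%, 10.4%, 14.2% and 14.9% of cells in WT mice and 17.1%, 13.3%, 16.3%, 17.9% and 19.9% in 564Igi mice, again with only 564Igi mouse 24 inside the WT range. Xbp1, the transcription factor of the IRE1 branch (chr11:5520659-5525893, plus strand), was present in 28.8%, 27.3%, 22.2%, 29.1% and 33.7% of the cells of the WT mice, and in 33.8%, 28.1%, 32.7%, 32.6% and 40.8% of those of the 564Igi mice. Its groups overlapped, with means of 28.2% ± 4.16 and 33.6% ± 4.59, and the counts do not separate its spliced from its unspliced mRNA. On the annotated strand Manf overlaps Rbm15b, Pdia4 overlaps Mir704 and Hsp90b1 overlaps Gm15344 and Gm25745, so reads from the shared stretches of these genes are uncertain.

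The mean level of all 10 genes was higher in 564Igi mice, by 0.019 (Derl3, SE 0.0021) to 0.13 (Hspa5) on the log2 scale with a median of 0.084. The level did not overlap between conditions for 3 of the 10, Derl3, Stc2 and Calr, and was higher in every 564Igi than every WT mouse for 0.261% of the 9959 genes tested. Because the genes were chosen on this contrast, and Derl3 passed the filter of tested genes only through the 564Igi mice, nothing is read from that count. The direction held with each cell thinned to 2000 corrected UMIs, which left out 0 cells: the share with Derl3 was then 0.347% ± 0.144 in WT and 1.36% ± 0.184 in 564Igi mice, that with Stc2 1.43% ± 0.546 and 3.16% ± 0.214, and that with Sdf2l1 9.52% ± 1.90 and 13.4% ± 2.06 (SD, n = 5 each). The unthinned median of corrected UMIs per cell was 3194.5 to 3675 in WT and 3240 to 3964 in 564Igi mice. The authors' heat shock score, another stress readout of the same libraries, averaged 0.0141 ± 0.0477 in WT and 0.0121 ± 0.0621 in 564Igi mice (SD, n = 5 each). A separate list of cytosolic heat shock genes had a higher level in 564Igi mice for 7 of its 8 tested genes in all cells (median log2 difference 0.012) and for 8 of 8 in TFR cells (0.030), with 0 called in limma and 0 at an unadjusted p below 0.05, and the part of a wider stress response in the differences of the 10 genes was not tested.

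The same values were taken within the larger clusters named by the authors. In activated TFH cells (11953 cells), Derl3 was found in 9, 0, 3, 3 and 4 cells of the WT mice and in 28, 7, 25, 32 and 26 cells of the 564Igi mice, or 0.361% ± 0.398 against 1.96% ± 0.476 (SD, n = 5 each). In follicular regulatory T (TFR) cells (11650 cells), it was found in 8, 10, 14, 12 and 13 against 28, 13, 40, 28 and 35 cells, or 0.907% ± 0.105 against 2.83% ± 0.421. In Sostdc1 TFH cells (2803 cells), the cluster marked by the secreted BMP antagonist Sostdc1, the shares were 0.744% ± 0.315 and 3.43% ± 0.807. The Derl3 shares overlapped in none of these 3 clusters.

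Stc2 in Sostdc1 TFH cells had shares of 4.90%, 6.22%, 1.52%, 3.79% and 9.27% in the WT chimeras against 12.9%, 10.98%, 12.8%, 11.2% and 11.05% in the 564Igi chimeras, with no overlap. In activated TFH cells its shares were 3.25% ± 0.833 and 6.43% ± 1.04, also with no overlap, and in TFR cells 1.29% ± 0.548 and 2.60% ± 0.768, which overlapped. The mean level of all 10 genes was higher in 564Igi mice in each of these 3 clusters. The share was not for 2 genes in Sostdc1 TFH cells, where Hspa5 was found in 76.9% ± 3.57 (WT) and 74.1% ± 7.54 (564Igi) of cells and Calr in 52.7% ± 7.02 and 51.9% ± 5.13. Levels did not overlap for Derl3, Stc2 and Calr in activated TFH cells (0.264% of 9859 genes), for Derl3, Sdf2l1 and Manf in TFR cells (0.380% of 9994 genes) and for Derl3, Sdf2l1 and Stc2 in Sostdc1 TFH cells (0.334% of 9885 genes). In the small clusters, taken from mice with at least 20 such cells, the direction was mixed. Among effector TFH cells (682 cells, 5 mice per condition) 9 of 10 genes were higher in 564Igi mice. Among central memory TFH cells (693 cells, 5 WT and 3 564Igi mice) 5 of 10 were. Among interferon-stimulated TFH cells (348 cells, 4 mice per condition) 4 of 10 were, and Derl3 was found in 0 cells of either condition. No gene had levels without overlap in these small clusters.

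The 10 genes did not share 1 order across clusters. By the mean share over mice, Sostdc1 TFH cells were highest for Derl3, Sdf2l1, Stc2, Creld2, Manf, Pdia4 and Xbp1, and central memory TFH cells were lowest for 8 genes, all but Derl3 and Hsp90b1. For 2 of the 7 the top was nearly level. Creld2 averaged 17.06% in Sostdc1 and 17.02% in effector TFH cells, with Sostdc1 higher in 5 of 10 mice. Derl3 averaged 2.09% in Sostdc1 TFH and 1.87% in TFR cells, with TFR higher in 5 of 10. Among the larger clusters, Stc2 was found in 8.46% ± 4.05 of Sostdc1 TFH cells, 4.84% ± 1.90 of activated TFH cells and 1.94% ± 0.933 of TFR cells (SD, n = 10 mice). It was higher in activated TFH than in TFR cells of that mouse for all 10 mice, and higher in Sostdc1 TFH than in TFR cells in 10 of 10. Hspa5, Creld2, Hsp90b1 and Calr lay the other way, higher in TFR than in activated TFH cells in 10 of 10 mice, with Calr at 55.8% ± 4.72 against 48.4% ± 3.73 and Hspa5 at 76.3% ± 4.29 against 70.0% ± 4.56.

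Hsp90b1 had a different order. It was highest in effector TFH cells, at 69.1% ± 7.01, and lowest in Sostdc1 TFH cells, at 47.9% ± 6.51, below activated TFH cells in 10 of 10 mice. For Sdf2l1, the shares in activated TFH (19.5% ± 4.46), TFR (19.1% ± 4.17) and Sostdc1 TFH cells (21.2% ± 5.85) lay within the spread between mice, but within a mouse the share was higher in Sostdc1 TFH than in TFR cells in 8 of 10. Manf, at 40.0% ± 5.32, 39.9% ± 4.44 and 43.6% ± 6.77, was higher in Sostdc1 TFH than in TFR cells in 9 of 10 mice, and Pdia4, at 35.7% ± 4.18, 36.9% ± 4.24 and 38.7% ± 4.93, in 7 of 10. Between activated TFH and TFR cells these genes were split over mice, with Sdf2l1 higher in activated TFH cells in 6 of 10, Manf in 4 and Pdia4 in 3. Derl3 was found in 0 of 348 interferon-stimulated TFH cells of the 8 mice with at least 20 such cells, which allows a share of up to 0.862% (counting error only).

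**Figure D2:**
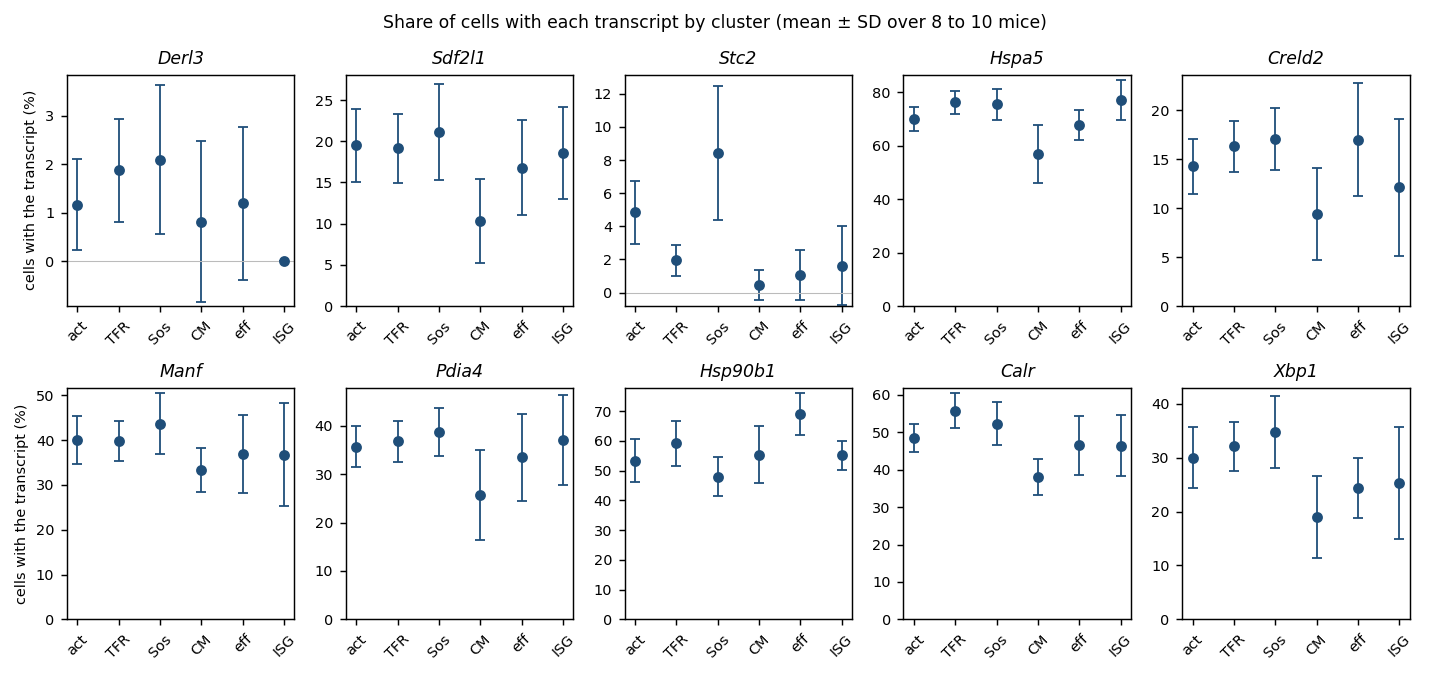
Share of cells (%) in which each transcript was found in each cluster, mean ± SD over the 8 to 10 mice with at least 20 cells in the cluster (act, activated TFH; Sos, Sostdc1 TFH; CM, central memory TFH; eff, effector TFH; ISG, interferon-stimulated TFH). Stc2 is highest in Sostdc1 TFH cells (8.46%) and Hsp90b1 in effector TFH cells (69.1%), while central memory TFH cells have the lowest share of 8 of the 10 genes.

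Whether other genes of the ER differed between conditions was tested with limma over all genes, with mice as replicates. The lists hold textbook genes of ER folding, ER-associated degradation, stress sensors, PERK and ATF4 targets, translocation into the ER and transport to the Golgi, and 94 of their genes passed the filter in all cells. None of the 94 was called (adjusted p below 0.01 and a log2 difference above 0.2 in size), against 1 of all 9959 genes (0.01%). The largest difference was 0.12 among the 94 and 0.13 among the 10 genes, so the size limit alone gave 0 calls. The 0 calls therefore do not set the 94 apart from the 10 genes. At an adjusted p below 0.05 with no limit on size, 0 of the 94 were called as well. Of the 94, 3 (3.19%) had an unadjusted p below 0.05, all higher in 564Igi mice, the same share as among all genes (3.19%). Among activated TFH cells 0 of 94 were called (0.0101% of all genes), and among TFR cells 0 of 95 (0.02% of all genes). At an unadjusted p below 0.05 there were 4 in each (4.26% and 4.21%), near the shares of all genes (3.99% and 3.5%). The level was higher in 564Igi mice for 67 of the 94 (71.3%) against 38.4% of all genes, with a median log2 difference of 0.0073 against -0.0018. All genes were not matched to the 94 for level.

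By role, 15 of 18 ER folding genes, 12 of 14 genes of ER-associated degradation, 15 of 16 transport genes and 15 of 24 translocation genes had the higher level in 564Igi mice, against 6 of 12 sensors and 4 of 10 PERK and ATF4 targets. Of the cytosolic heat shock genes, 7 of 8 did. Many of these differences were smaller than their errors, such as those of Sec31a (0.0013, SE 0.017) and Sel1l (0.0016, SE 0.014). The lists come from the same mice and were not matched for level, so nothing is read from these counts of directions. The largest positive differences in all cells were those of Sec61g, a subunit of the translocation channel (0.12, SE 0.069, adjusted p = 0.9997 in limma), Pdia6, a disulfide isomerase (0.12, SE 0.039, adjusted p = 0.872) and Pdia3, its glycoprotein-handling relative (0.097, SE 0.073, adjusted p = 0.9997). The share with Pdia6 averaged 40.2% ± 4.89 in WT and 45.3% ± 4.98 in 564Igi mice (SD, n = 5 each), with overlap. The largest negative differences were those of Tram1, which assists translocation (-0.036), Phgdh, an enzyme of serine synthesis (-0.028) and Dnajc10, a reductase of the ER (-0.026). In activated TFH cells Sec61b (0.092), Os9 (-0.030) and Slc3a2 (-0.027) took the place of Pdia3, Phgdh and Dnajc10. In TFR cells Pdia6 differed by 0.13 (SE 0.039, adjusted p = 0.473 in limma).

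**Figure D3:**
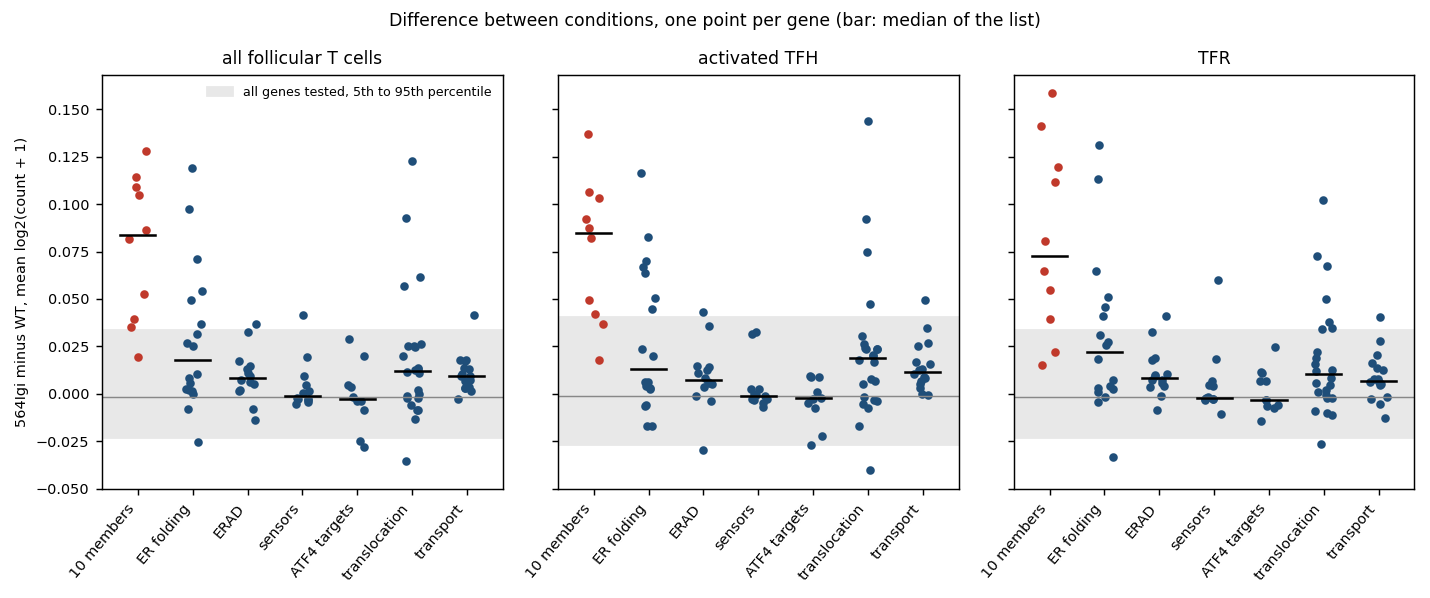
Difference in level between 564Igi and WT mice (mean log2(corrected count + 1), 1 point per gene), for the 10 genes (red) and 6 lists of other ER genes (blue), in all cells, activated TFH and TFR cells, with a bar at each list's median and a grey band from the 5th to the 95th percentile of all genes tested. The 10 genes, chosen on this contrast, have a median of 0.084 in all cells, and most folding, degradation and transport genes lie above 0 while sensors and ATF4 targets straddle it. The lists were not matched for level.

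The next comparisons did not enter the choice of the genes, and ask whether the transcripts were found in the same cells. In each mouse, cells with a given transcript were set against cells without it, with the latter weighted to the same mix of clusters and raw UMI depth (5 bins per mouse), and the 10 differences were tested with limma over all genes at an adjusted p below 0.01. Cells with a transcript were deeper than cells without it in 10 of 10 mice for each of Derl3, Sdf2l1 and Stc2, with medians of 4020.5 against 3452.75 raw UMIs for Sdf2l1. Differences in depth within a bin were not tested.

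Cells with Sdf2l1 (5480 cells, 198 to 784 per mouse) had higher levels of most other genes of the group. The test called 6 of the other 9, against 2% of all genes called higher: Calr (0.30, SE 0.048, adjusted p = 0.00350), Hsp90b1 (0.28, SE 0.049, adjusted p = 0.00537), Manf (0.21, SE 0.039, adjusted p = 0.00754), Xbp1 (0.17, SE 0.025, adjusted p = 0.00262), Pdia4 (0.13, SE 0.023, adjusted p = 0.00527) and Creld2 (0.089, SE 0.015, adjusted p = 0.00394). Each of the 6 was higher in 10 of 10 mice. Calr was found in 64.4% ± 4.86 of cells with Sdf2l1 and 50.8% ± 3.31 of cells without, and Xbp1 in 41.4% ± 7.37 and 30.2% ± 3.82 (SD, n = 10). Hspa5 was also higher in 10 of 10 mice (0.34, SE 0.079) but missed the threshold (adjusted p = 0.0208 in limma), as did Derl3 (adjusted p = 0.0534) and Stc2 (adjusted p = 0.0801).

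Of the 94 other ER genes, 20 were called higher and 0 lower in cells with Sdf2l1, 7 of them folding genes and 7 translocation genes. The largest were Pdia3 (0.34), Pdia6 (0.28), Fkbp2, a prolyl isomerase (0.14), Rpn1, a subunit of the oligosaccharyl transferase (0.13), and Canx, the membrane-bound relative of calreticulin (0.12), each higher in 10 of 10 mice. No sensor was called, and 1 of 10 PERK and ATF4 targets was. The level was still higher for 11 of 12 sensors and 8 of 10 of these targets, against 58.1% of all genes. The calls were not limited to ER genes: of 8 cytosolic heat shock genes, 3 were called higher and 8 had the higher level in cells with Sdf2l1. With the variance trend placed on each gene's mean level, an alternative added after the data were seen, all 9 genes of the group were called (3.18% of all genes called higher). Of the 9, Derl3 passed the filter only through the 564Igi mice. Within activated TFH cells alone no gene of the 9 was called (0 of all genes called higher), and all 9 had an unadjusted p below 0.05 with a higher level, as did 7.95% of all genes. Leaving out 1 mouse at a time gave 1 to 6 calls: 1 without 564Igi mouse 17, 13 or 21, 2 without 564Igi mouse 34 and 3 without WT mouse 36.

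The difference between cells with and without Sdf2l1 was on average larger in 564Igi mice. For Manf it was 0.031 to 0.16 in the WT mice and 0.26 to 0.38 in the 564Igi mice, and for Hsp90b1 0.12 to 0.21 and 0.31 to 0.48. The difference was larger in every 564Igi than every WT mouse for 4 of the 9, Creld2, Manf, Hsp90b1 and Xbp1 (0.834% of all genes), and larger on average for all 9. By Derl3, 0 of 9 differences were larger in every 564Igi than every WT mouse (1.05% of all genes). By Stc2, 0 of 9 were (0.382%). The mean difference was still larger in 564Igi mice for 9 of 9 genes by Derl3 and 8 of 9 by Stc2. Unlike the comparisons above, these counts set the conditions side by side. Levels of these genes themselves differ between conditions, the contrast on which they were chosen, so nothing is read from these counts. This comparison was given no test.

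Cells with Derl3 were few, 410 in all and 12 to 78 per mouse. Sdf2l1 was found in 42.2% ± 14.1 of cells with Derl3 and 22.2% ± 3.60 of cells without (SD, n = 10), higher in 10 of 10 mice. The log2 difference in level was 0.46 for Hspa5 (SE 0.15), 0.36 for Hsp90b1 (SE 0.086), 0.33 for Sdf2l1 (SE 0.074) and 0.32 for Calr (SE 0.081). None of the 9 was called at an adjusted p below 0.01 in limma (0 of all genes called higher), while all 9 had an unadjusted p below 0.05, as did 4.73% of all genes in that direction. With the trend on mean level, 4 were called, Hspa5, Hsp90b1, Calr and Sdf2l1 (0.221% of all genes). Within activated TFH cells the comparison had 4 mice with enough cells and 0 calls (0 of all genes).

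Among cells with Stc2 (1065 cells, 35 to 179 per mouse), the test called 3 of the other 9, against 3.1% of all genes called higher: Hspa5 (0.32, SE 0.034, adjusted p = 0.000152), Calr (0.21, SE 0.042, adjusted p = 0.00658) and Pdia4 (0.11, SE 0.022, adjusted p = 0.00572), higher in 10, 10 and 9 of 10 mice. Hspa5 was found in 81.7% ± 4.94 of cells with Stc2 and 72.8% ± 5.10 of cells without. For Hsp90b1 the difference was 0.020 (SE 0.026, adjusted p = 0.745) with 6 of 10 mice positive, and it was found in 55.0% ± 5.79 and 54.3% ± 7.24 of the cells. Of the other ER genes, 10 were called higher, led by Pdia3 (0.24), Spcs1, a signal peptidase subunit (0.21), Pdia6 (0.21), Serp1, a translocon-associated protein (0.17), and Selenos, of ER-associated degradation (0.16), and Tram1 was called lower (-0.048). With the trend on mean level 7 genes of the group were called (4.53% of all genes) and Tram1 was not. Within activated TFH cells 2 were, Hspa5 and Xbp1 (2.35%). Leaving out 1 mouse gave 1 to 5 calls: 1, Hspa5, without WT mouse 11 or 23 or without 564Igi mouse 17, 13, 21 or 34, and 5 without WT mouse 12.

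**Figure D4:**
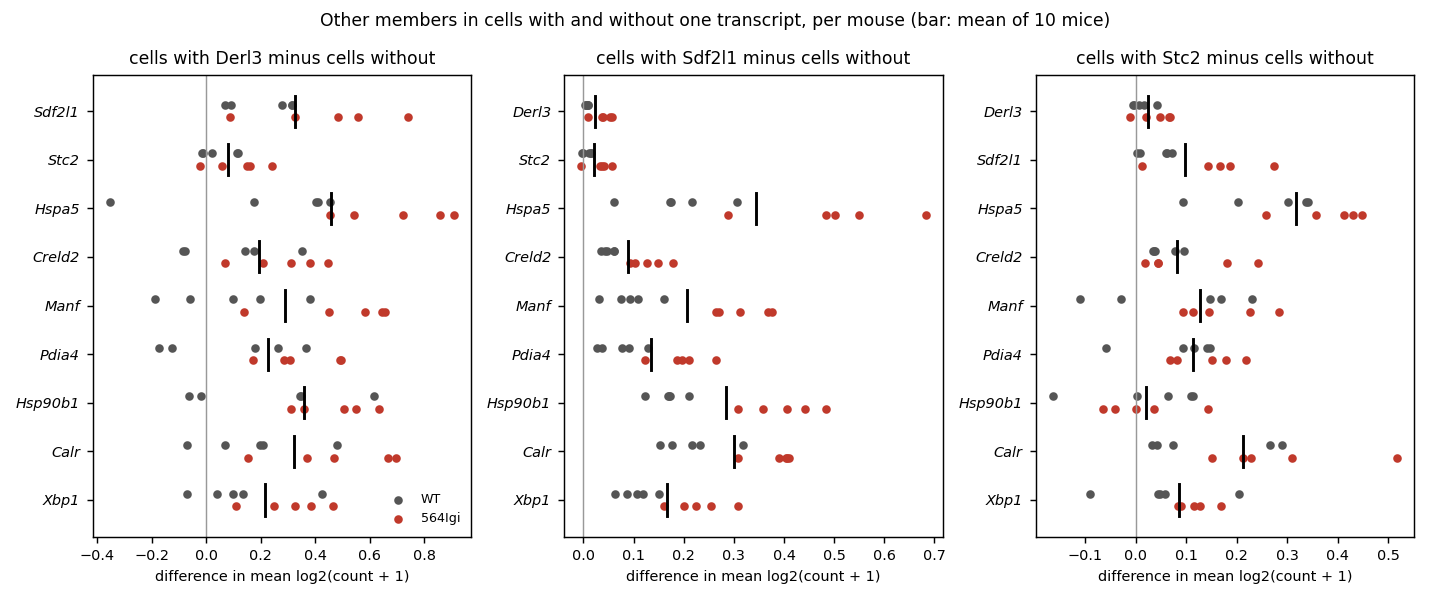
Difference in level (mean log2(corrected count + 1)) of the other 9 genes between cells with and without Derl3 (left), Sdf2l1 (middle) or Stc2 (right), 1 point per mouse, WT in grey and 564Igi in red, with a bar at the mean of 10 mice. In the Sdf2l1 panel every point of Calr, Hsp90b1, Manf, Xbp1, Pdia4 and Creld2 lies above 0, and in the Stc2 panel Hsp90b1 is centred near 0 (0.020).

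Between mice of the same condition, the level of the other genes was fitted against that of Sdf2l1 with condition as a term. None of the 9 was called at an adjusted p below 0.01 (0 of all genes). The slope of Xbp1 was 1.49 log2 units per unit of Sdf2l1 (SE 0.24, adjusted p = 0.0519 in limma), followed by Pdia4 (1.19, SE 0.27, adjusted p = 0.0899), Manf (1.14, SE 0.32, adjusted p = 0.188) and Creld2 (0.59, SE 0.17, adjusted p = 0.210). Together with Hsp90b1 (1.96, SE 0.80), these were the 5 with an unadjusted p below 0.05 and a positive slope, which 9.99% of all genes had. The slopes of Hspa5 (0.65, SE 1.09) and Calr (0.10, SE 0.52) were smaller than their errors. With the heat shock score as a further term, the slopes of Xbp1 (1.31, SE 0.26), Manf (1.62, SE 0.34), Creld2 (0.73, SE 0.17) and Pdia4 (0.96, SE 0.30) kept an unadjusted p below 0.05 in limma. Their adjusted p in that order was 0.0232, 0.0246, 0.0273 and 0.0506, so none was called. The share of all genes below 0.05 in that fit was not counted, so nothing particular to these genes is read from it. The slopes of Hsp90b1 (1.09, SE 1.21) and Hspa5 (-0.70, SE 1.59) had no unadjusted p below 0.05. Against Derl3, 0 were called (0 of all genes) and 1, Xbp1, had an unadjusted p below 0.05 (1.44% of all genes). Against Stc2, 0 were called (0 of all genes) and Sdf2l1, Pdia4 and Xbp1 had an unadjusted p below 0.05 (2.36% of all genes). None of these 4 slopes against Derl3 or Stc2 kept it with the heat shock score as a term.

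**Figure D5:**
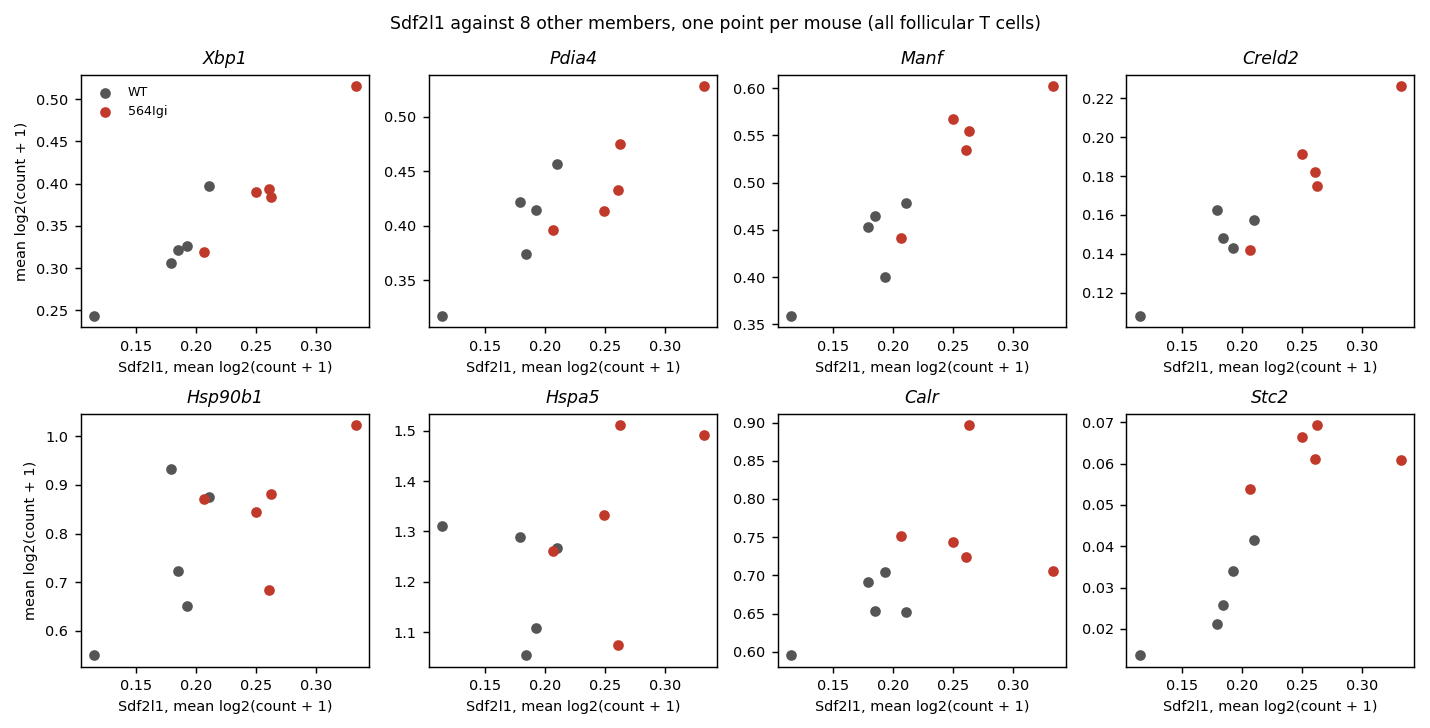
Level of 8 of the other genes against that of Sdf2l1 (both mean log2(corrected count + 1) over all cells), 1 point per mouse, WT in grey and 564Igi in red. Xbp1 has the smallest p for its slope (1.49 with condition as a term, adjusted p = 0.0519 in limma), while Hspa5 and Calr are scattered (0.65 and 0.10, each below its error); the axes do not start at 0.

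T cell receptor clones gave a further split that the choice of genes did not use. Cells of expanded clones, those sharing both CDR3 amino acid sequences with at least 2 other cells of the mouse, were compared with singletons in each mouse. In activated TFH cells (5783 expanded and 2416 singleton cells), 0 of the 10 genes were called at an adjusted p below 0.01 (0.284% of all genes), and 10 of 10 had a higher mean level in expanded clones, against 27.9% of all genes. Hspa5 differed by 0.11 (SE 0.032, adjusted p = 0.0687 in limma), but Sdf2l1 (0.00092, SE 0.0094) and Creld2 (0.0051, SE 0.0080) by less than their errors. All genes were not matched to the 10 for level, so nothing is read from this count of directions. Stc2 came nearest (0.031, SE 0.0077, adjusted p = 0.0382 in limma, 8 of 10 mice), and was the 1 gene of the group past an adjusted p of 0.05 (1.47% of all genes called higher). It was called with the trend on mean level (1.08% of all genes).

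In TFR cells (4937 expanded and 2972 singleton cells), 0 of 10 were called (0 of all genes) and 6 of 10 had a higher mean level in expanded clones, against 28.5% of all genes, again not matched for level. Hspa5 was the 1 gene past an adjusted p of 0.05 (0.450% of all genes called higher), with a difference of 0.10 (SE 0.018, adjusted p = 0.0315 in limma) and 9 of 10 mice. Derl3 and Sdf2l1 differed by -0.0048 (SE 0.0046) and -0.016 (SE 0.014) there. Expanded cells were shallower than singletons in 9 of 10 mice in both clusters, with medians of 3535.5 against 3918.5 and 3457.75 against 3668 raw UMIs.

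Because several of the 10 genes are also plasma cell genes, markers of other cell types were set beside these results. Shares in cells with and without a transcript here pool the cells of all mice, with no weighting for mouse, condition, cluster or depth. Of the 410 cells with Derl3, 320 came from 564Igi mice, and the part of condition and depth in these pooled shares was not tested. Jchain, Mzb1 and Sdc1 were each found in 0 of the 410 cells with Derl3, which allows a share of up to 0.732% (counting error only), and Cd3e was found in 99.0% of them. Jchain was found in 20 of 5480 cells with Sdf2l1 (0.365%) against 0.145% of cells without, and in 4 of 1065 cells with Stc2 (0.376%) against 0.181%. Of the 14 plasma cell markers listed, Tnfrsf17 was not in the matrix, and 8 of the 13 others had a higher mean in 564Igi mice, with a summed count of 86.5 to 126 per 100 cells in WT and 105 to 141 in 564Igi mice. That list holds Derl3 and Xbp1 themselves and genes common in these T cells, such as Tnfrsf13b (19.6% of all cells) and Pou2af1, a B cell coactivator also present in TFH cells. Pou2af1 was found in 28.5% of cells with Derl3 against 16.7% of cells without, in 33.5% against 16.2% for Stc2 and in 19.3% against 16.3% for Sdf2l1. The 7 B cell markers in the matrix, led by Cd74, summed to 81.6 to 130 per 100 cells in WT and 109 to 200.5 in 564Igi mice, and 6 of the 7 had a higher mean in 564Igi mice. Ms4a1 was found in at most 0.239% of the cells of any mouse. H2-Aa, an MHC class II gene, was found in 0.409% to 1.03% of cells in the WT mice and 1.22% to 3.64% in the 564Igi mice, with no overlap. It was also found in 3.17% of cells with Derl3 against 1.38% of cells without, in 2.01% against 1.26% for Sdf2l1 and in 3.005% against 1.35% for Stc2. Cd79b was found in 7.07% of cells with Derl3 against 3.51% without, and Pax5 in 1.95% against 0.929%. Other markers of these lists went the other way. In cells with Stc2, Cd74 was found in 21.3% against 29.9% of cells without, and Cd79b in 2.16% against 3.62%. Mzb1 and Sdc1 were each found in 0 of the 1065 cells with Stc2. Prdm1 was found in 2.93% against 5.15% for Derl3 and 2.35% against 5.23% for Stc2, but in 5.71% against 4.98% for Sdf2l1. The part of cells other than T cells in the differences between conditions, and between cells with and without a transcript, was not tested.

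Over the 56 combinations of mouse and cluster with at least 20 cells, the genes whose level was most like the mean of the 10 (each scaled to its own mean and SD) were Ldha (Pearson r = 0.848), Pdia6 (0.846), Grhpr (0.808), Prkar1a (0.793), Aldoa (0.790), Vsir (0.772), Pgk1 (0.770), Gpi1 (0.756), Bsg (0.748) and Prelid2 (0.748). Across all genes the median r was 0.030 and the 90th percentile 0.382. Ldha, Aldoa, Pgk1 and Gpi1 are enzymes of glycolysis, and Pdia6 was the 1 gene among them from the ER lists. Among the 10 genes, r with their own mean ran from 0.349 for Hsp90b1 to 0.821 for Pdia4. These points share mice and libraries, and the values are a description.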

How the data were processed

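Spleen follicular T cells were sequenced as 10x Genomics 5′ libraries with V(D)J libraries, 1 per mouse. The authors aligned reads with Cell Ranger 4.0.0 to mm10 (GRCm38), filtered cells, and applied sctransform in Seurat 3.1.4 to each condition separately. The deposited values are natural logs (ln) of the corrected UMI count plus 1; back-transformed, 100% were whole within 1e-06. Cluster names, raw UMI counts and the heat shock score are from the authors' deposited cell table. No doublet removal was named in the sources used here and none was run.

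Values were converted to log2(corrected count + 1) and averaged per mouse and cluster (at least 20 cells). Mice were grouped by label, are the replicates, and carry numbers in accession order that name but do not pair them. The program limma 3.58.1 (R 4.3.3), with a variance trend, was run over the genes that reached a share of 1% of cells in 5 or more mice. Derl3 reached it in 1 WT and 5 564Igi mice in all cells, in activated TFH and in TFR cells. It therefore passed the filter only through the 564Igi mice. The p-values were adjusted by Benjamini and Hochberg. Between conditions, calls needed an adjusted p below 0.01 and a log2 difference above 0.2. In the comparisons of cells, clones and slopes they needed an adjusted p below 0.01. Comparisons by Derl3, Sdf2l1 or Stc2 used mice with at least 10 such cells. The steps were tested on simulated data. Alternatives were the filter, the trend, the threshold, the pseudocount (0.1), the scale, covariates, the weighting, the clone size (at least 5) and leaving out each mouse.

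Raw depth was 2728 to 4375.5 UMIs per cell (medians of mice), and a transcript found in 0 cells has an upper limit of 3 counts. T cell receptors were given for 33833 cells, of which 21405 also had RNA. Promoters and gene positions are from the GRCm38 annotation and RefSeq.

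The 10 genes and all lists were chosen with earlier results of these data known. All 10 are named. Other genes named are ER list genes called in a fit (up to 5 in each direction by size), the 3 largest positive and negative differences of ER list genes between conditions, the 10 genes most like the group's mean, and markers of other cell types. Where single markers, alternative-only calls or gene names outside this rule appear, they were chosen after their values were seen.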

Additional observations from a re-analysis of the deposited data

Results flagged for a closer look

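In 109 groups of 4 or 5 mice the highest or lowest mouse was compared with the rest, and 4 values stood apart by the gap to the nearest mouse over the group's range; chance gives about 1 in 20 groups. Manf in 564Igi mouse 24 was found in 35.0% of all follicular T cells, against 43.9% to 45.9% in the other 564Igi mice, and in 33.5% of activated TFH cells, against 43.4% to 45.9%. These 2 values share cells. Calr in WT mouse 12 was found in 39.2% of activated TFH cells, against 47.8% to 49.4% in the other WT mice. Calr in 564Igi mouse 13 was found in 66.2% of TFR cells, against 54.4% to 57.3% in the other 564Igi mice. The cause was not tested.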

How the results depend on the processing

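Of 181 recomputed counts of calls, 158 stayed within 1.5 times the reported count. For cells with Sdf2l1 (6 calls reported), there were 3 calls with no filter, 3 with a log2 difference above 0.2, 0 in activated TFH cells only, and 1 to 6 leaving out each mouse. For cells with Stc2 (3 reported), there was 1 with no filter, 7 at an adjusted p below 0.05, 7 with the trend on mean level, 7 with no weighting, and 1 to 5 leaving out each mouse. For cells with Derl3 (0 reported), there were 4 with the trend on mean level. For expanded clones (0 reported), there was 1 at an adjusted p below 0.05 in activated TFH and in TFR cells, and 1 with the trend on mean level in activated TFH cells. The cause of these changes was not tested. The 0 calls among other ER genes between conditions and on the slopes were 0 in each alternative run. Of 330 recomputed differences of the 10 genes between conditions, 0 changed sign. No paired analysis was possible because mouse numbers do not pair WT with 564Igi chimeras. Precision for Derl3 is limited by its few cells, 12 to 78 per mouse.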
